A study of Mus musculus with 12 samples.

Results

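The Bcl2 family decides whether a cell releases cytochrome c from its mitochondria and dies, and 10 of its genes were read out here in mouse pancreatic islets with and without a β-cell transgene for the microRNA miR-7. The genes were chosen by symbol: 4 that protect cells (Bcl2, Bcl2l1, Bcl2l2 and Mcl1), the 2 effectors Bax and Bak1, and 4 BH3-only genes (Bbc3, Pmaip1, Bid and Bcl2l11). Each symbol matched 1 Ensembl row, giving 10 of the 37991 genes in the count table, and all 10 passed the filter on low counts that left 15961 genes for testing. Bulk RNA-seq had been run on islets of male C57BL/6 mice at 2w and 12w of age, with 3 libraries in each of 4 groups. Tg7 mice overexpressed miR-7a2 in β-cells and served as a model in which β-cells lose their identity. Wt mice were littermates without the transgene. The study calls Tg7 mice prediabetic at 2w and diabetic at 12w, and the promoter driving the transgene was not found in its methods or labels. Each library was a pool of islets from several animals, numbered 1 to 3 in a group and 1, 2 and 4 in 12w Wt, so the spread between libraries is a spread between pools.

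The protective proteins hold Bax and Bak1 in check at the outer mitochondrial membrane. BH3-only proteins are the sensors of the family. They bind the protective proteins or the effectors directly, and once Bax or Bak1 form pores, cytochrome c leaves the mitochondria and caspases are switched on. In β-cells Bcl2l1 and Mcl1 are known survival genes, and Bcl2l11, Bbc3 and the stress factor Ddit3 have been studied in β-cell death under metabolic and endoplasmic reticulum stress.

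The transgene product is the first sequence that bears on these genes, because a microRNA finds its targets by pairing its seed, bases 2 to 8, with a 3′ UTR. Its mature form in RefSeq is given with the seed in capitals.
miR-7a-5p: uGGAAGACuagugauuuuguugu
The longest annotated 3′ UTR of each gene was searched for 8mer, 7mer-m8 and 7mer-A1 matches to that seed. Matches lay in 5 of the 10 genes, Bcl2, Mcl1, Pmaip1, Bid and Bcl2l11, against 21.5% of the 20007 genes with an annotated 3′ UTR. Bcl2 and Bcl2l11, with UTRs of 5086 and 4218 bases, had 2 matches each. None was found in Bcl2l1, Bcl2l2, Bax, Bak1 or Bbc3. The UTRs were 1670 to 5086 bases long in the genes with a match and 167 to 3177 in those without. The background was not matched for UTR length, so the share in the 10 genes is not a test of enrichment. Of the 7 matches, the 1 in Pmaip1 is not shown here. The windows are shown 5′ to 3′ on the gene's strand, with the bases that pair with the seed, and the A opposite the first base of the microRNA where present, in capitals.
Bcl2 8mer: aagaaagcctgGTCTTCCAtggactggaga
Bcl2 7mer-A1: tcgaccttgttTCTTCCAggtttacttgt
Mcl1 7mer-A1: gtcttcaagcaTCTTCCAtgtacattcta
Bid 7mer-m8: ccttgaacattGTCTTCCtgccttcaccc
Bcl2l11 8mer: gtaaagcacttGTCTTCCAcaagatgtctg
Bcl2l11 7mer-m8: gaaatggttttGTCTTCCtgctgattcag
In NCBIM37 coordinates the Bcl2 windows are chr1:108439283-108439312 and chr1:108437771-108437799 on the minus strand, and the Mcl1 window is chr3:95466923-95466951 on the plus strand. The Bid window is chr6:120842501-120842529 on the minus strand. The Bcl2l11 windows are chr2:127985312-127985341 and chr2:127987807-127987835 on the plus strand. A match is a description of letters, and pairing with the microRNA was not measured.

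Promoters were read because several of the genes are textbook targets of transcription factors, Bcl2l11 and Bbc3 of FOXO and Bax, Bbc3 and Pmaip1 of p53. RefSeq promoters (GRCm38.p6, a window around each gene's start) were at hand for 9 of the 10 genes, Pmaip1 being the exception. The FOXO core, searched as TGTTTAC on both strands, lay in a promoter of Bcl2l11 and of Bbc3 and in 3.65% of 32851 promoters. The p53 decamer, searched by its consensus on both strands, lay in the Bax promoter, in none of the 3 promoters of Bbc3, and in 8.36% of promoters. The matches are in capitals, and none overlapped another.
Bcl2l11 FOXO core: acactaggGTAAACAcgccgggg
Bbc3 FOXO core: ggcgggttTGTTTACaaacaatg
Bax p53 decamer: catatcccAGGCAAGCTTtgaacttg
These windows are chr2:128125803-128125825 on the plus strand, chr7:16310086-16310108 on the plus strand and chr7:45467082-45467107 on the minus strand. The matches begin at -227, -167 and -201 relative to the start of transcription. No binding was measured at these windows.

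The libraries held 11610697 to 17515758 counts. Insulin transcripts (Ins1 and Ins2) took 14.8% to 30.0% of the counts in 12w Wt libraries and 8.08% to 8.24% in 12w Tg7 libraries, and at 2w 10.1% to 15.4% in Wt and 1.84% to 4.09% in Tg7. Levels below are therefore CPM, in which each count is divided by the library size times a TMM factor (0.684 to 1.19) that keeps a few abundant transcripts from setting the scale. The labelled tissue held its markers: the summed level of 8 β-cell markers was 198236 to 481895 CPM in 12w Wt and 100152 to 105539 CPM in 12w Tg7, and 7 of the 8 fell in Tg7 at each age. Acinar markers were near absent, at no more than 12.9 CPM for the sum of 6 genes in any library. The 6 stellate cell and fibroblast markers summed to 34.8 to 41.8 CPM in 12w Wt and 256 to 289 CPM in 12w Tg7, and the 5 endothelial markers to 299 to 387 and 601 to 660 CPM. In bulk islets, fewer cells of a type and less RNA per cell cannot be told apart. The microRNA itself was not measured, since the rows of the miR-7 loci held at most 30 counts in any library.

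Levels were first set side by side between the genes, per kb of the union of annotated exons. That union is 1.339 kb for Bax, 3.485 kb for Mcl1, 2.008 kb for Bbc3 and 8.029 kb for Bcl2l11. The length of the transcripts expressed was not measured, so the order between genes depends on the annotation. Mcl1, Bax and Bcl2l2 were the most abundant transcripts of the set in every group. In 12w Wt islets Mcl1 stood at 44.5 ± 0.575 CPM per kb (SD, n = 3), Bax at 35.0 ± 5.67 and Bcl2l2 at 19.2 ± 5.41. Bcl2l1, which encodes Bcl-xL, stood at 12.9 and Bak1 at 6.46 CPM per kb. The BH3-only genes followed, with Bbc3 (Puma) at 3.68, Bid at 2.41, Bcl2l11 (Bim) at 2.40 and Pmaip1 (Noxa) at 0.986 CPM per kb. Bcl2, which gave the family its name, had the lowest mean of the 10 in every group, at 0.703 CPM per kb in 12w Wt, though its libraries overlapped those of Pmaip1 in every group but 2w Wt. Neighbours whose libraries overlapped in 12w Wt, and so were not ordered beyond their spread, were Bcl2l2 with Bcl2l1, Bak1 with Bbc3, Bbc3 with Bid, Bid with Bcl2l11 and Pmaip1 with Bcl2.

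The order at the top changed hands between the groups. Bax lay above Mcl1 in Tg7 islets at both ages without overlap, at 52.9 against 42.6 CPM per kb at 2w and at 51.6 ± 1.95 against 33.5 ± 1.01 CPM per kb at 12w. Mcl1 lay above Bax in 12w Wt islets, again without overlap, whereas at 2w in Wt the pair overlapped at 49.5 ± 3.0 for Bax and 46.8 ± 5.23 for Mcl1. Of the summed level per kb of the 10 genes, the protective genes made up 60.3% ± 2.61 (SD, n = 3) at 12w in Wt and 48.8% ± 0.963 at 12w in Tg7. The effectors made up 32.3% ± 2.60 and 42.2% ± 1.58, and the BH3-only genes 7.37% ± 0.432 and 9.05% ± 0.788. By gene, Mcl1 made up 34.9% in 12w Wt and 24.0% in 12w Tg7, and Bax 27.2% and 36.9%. The others of these classes moved less: Bcl2l2 14.9% and 14.8%, Bcl2l1 10.0% and 9.26%, Bcl2 0.557% and 0.713%, and Bak1 5.10% and 5.27%. Shares are parts of a whole, so a change in a single gene moves all of them, and they carry no test. At 2w the protective share was 52.5% ± 1.47 in Wt and 48.3% ± 2.04 in Tg7.

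**Figure D1:**
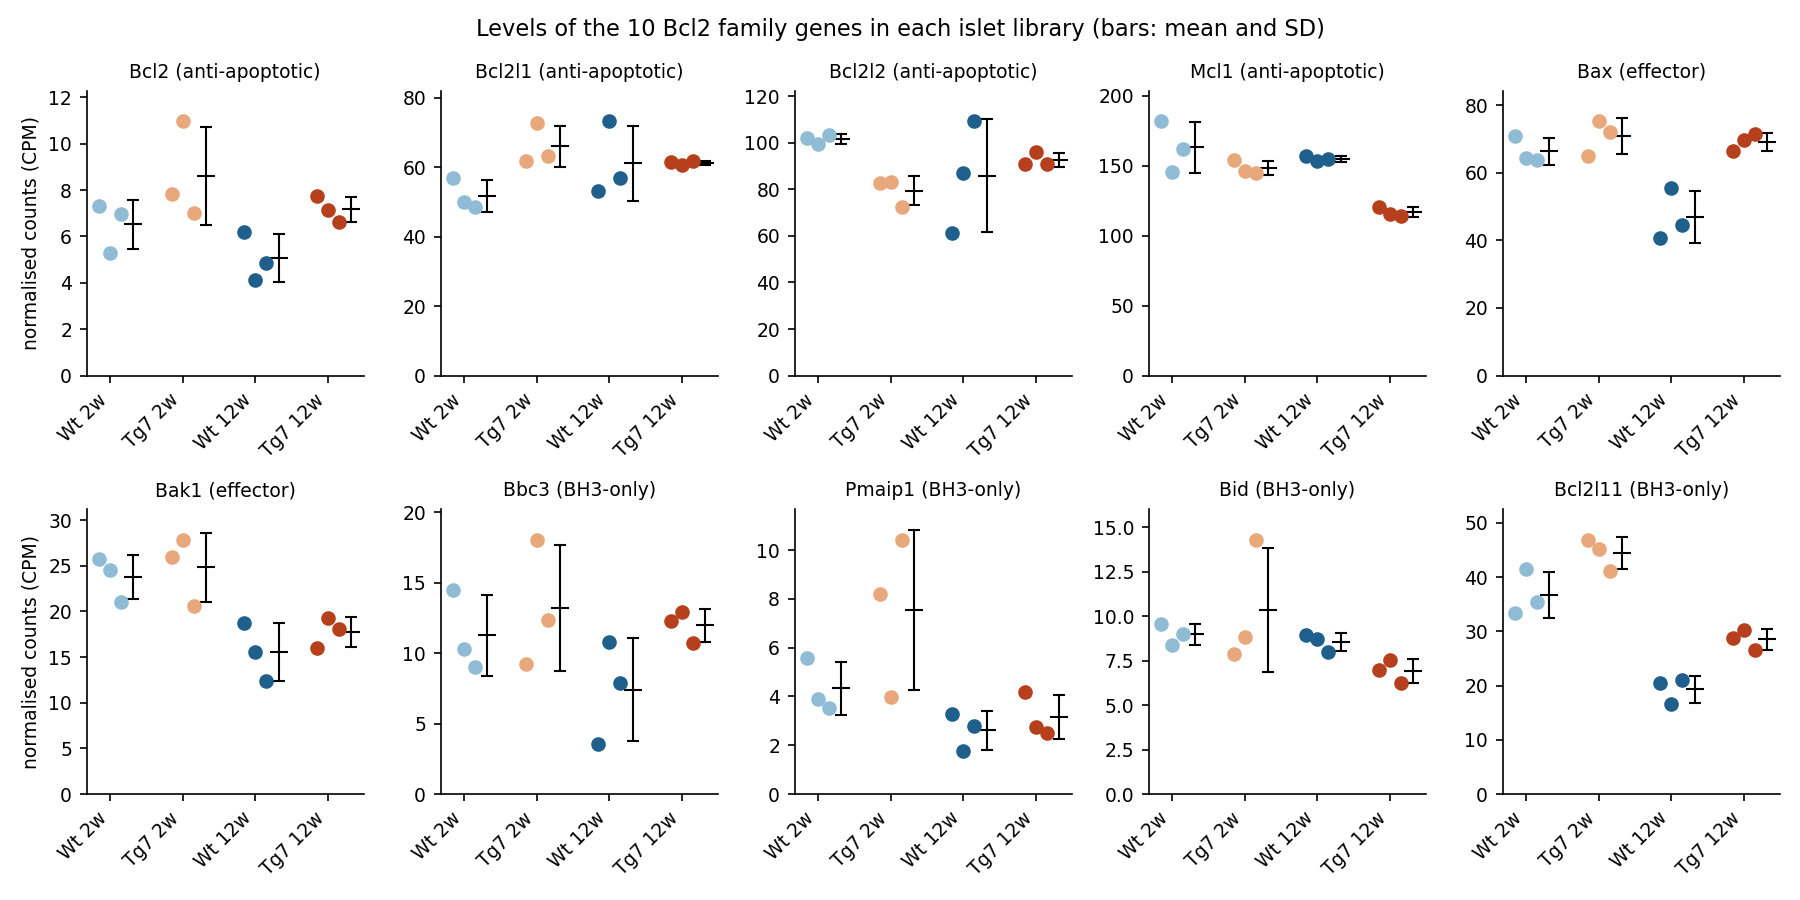
Levels of the 10 genes in CPM (vertical axes from 0) in each of the 12 islet libraries, 1 panel a gene, with the mean and SD of each group beside its 3 points. At 12w the Tg7 points of Bax (66.3 to 71.5 CPM) and Bcl2l11 (26.5 to 30.2 CPM) lie above all Wt points and those of Mcl1 (114 to 121 CPM) lie below them.

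At 12w, the age at which Tg7 mice are diabetic, 3 of the 10 genes differed between Tg7 and Wt islets. The protective gene Mcl1 fell with TMM factors (log2 fold change -0.41) and was at 0.04 with library size alone. The effector Bax rose 1.47-fold and the BH3-only gene Bcl2l11 rose 1.48-fold. The other 7 did not pass the test. Of all genes tested, 23.6% passed at this age, 12.5% higher and 11.2% lower, so 3 of 10 is near the background. The median log2 fold change of the 10 genes was 0.24, beside -0.01 over all genes tested. Groups did not overlap for 5 of the 10 genes, 3 higher and 2 lower, against 37.1% of all genes, 20.7% higher and 16.3% lower.

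Mcl1, a short-lived protein that blocks Bak1 and binds Bcl2l11, is encoded at chr3:95462643-95467099 (NCBIM37, plus strand; ENSMUSG00000038612). It gave 157, 153 and 155 CPM in the 12w Wt libraries and 121, 115 and 114 CPM in the 12w Tg7 libraries. The 3 Wt libraries were close together and all Tg7 libraries lay below them. The log2 fold change was -0.41 ± 0.11 (SE; 95% interval -0.64 to -0.18), or 0.753 of the Wt level, with an adjusted p of 0.014 in edgeR's quasi-likelihood test with Benjamini-Hochberg adjustment. The call depended on scaling. With library size alone, which moves the median over all genes from -0.01 to 0.43 (log2), Mcl1 was at 0.04, and with the insulin genes removed from the library sizes it was at -0.24, neither called. Relative to the median of all genes Mcl1 was at -0.40 with TMM factors and at -0.39 under both of these scalings. Leaving out pool 2 (-0.40) or pool 3 (-0.39) of 12w Tg7 also ended the call.

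Of the other protective genes, Bcl2 gave 6.18, 4.13 and 4.87 CPM in 12w Wt and 7.73, 7.14 and 6.64 CPM in 12w Tg7. All 3 Tg7 libraries lay above the Wt libraries, yet the log2 fold change of 0.51 ± 0.24 did not pass (adjusted p = 0.15). It passed with library size alone (0.97) and with the insulin genes left out (0.69). Bcl2l1 gave 53.2, 73.3 and 56.8 CPM in 12w Wt and 61.4, 60.6 and 61.8 CPM in 12w Tg7. The Tg7 libraries sat inside the Wt range, and the 95% interval of the log2 difference ran from -0.28 to 0.29. Bcl2l2, which encodes Bcl-w, had the widest Wt range, 61.1, 87.2 and 109 CPM, around Tg7 values of 91.0, 96.2 and 90.7 CPM. Its log2 interval ran from -0.24 to 0.45.

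Bax, the effector that moves from the cytosol to mitochondria, lies at chr7:52717065-52722268 (minus strand; ENSMUSG00000003873). It gave 40.8, 55.4 and 44.4 CPM in 12w Wt and 66.3, 69.6 and 71.5 CPM in 12w Tg7. Every Tg7 library was above every Wt library. The log2 fold change was 0.56 ± 0.13 (95% interval 0.29 to 0.83; 1.47-fold; adjusted p = 0.0059). Bax was the single gene of the 10 whose call at this age held in all 10 alternative settings and with each of the 12 libraries left out, at log2 fold changes of 0.45 to 0.997 and adjusted p up to 0.041. Bak1, the effector that sits in the mitochondrial membrane already, gave 18.8, 15.6 and 12.3 CPM in Wt and 16.0, 19.3 and 18.1 CPM in Tg7. The groups overlapped and the log2 fold change was 0.20 ± 0.18 (adjusted p = 0.47).

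Bcl2l11 encodes Bim, a BH3-only protein that binds every protective member, and lies at chr2:127951774-127988283 (plus strand; ENSMUSG00000027381). It gave 20.4, 16.5 and 21.0 CPM in 12w Wt and 28.8, 30.2 and 26.5 CPM in 12w Tg7, again without overlap. The log2 fold change was 0.56 ± 0.14 (95% interval 0.26 to 0.86; 1.48-fold; adjusted p = 0.0099). It fell short in edgeR on the 12w libraries alone (0.53, adjusted p = 0.055) and passed in the other 9 settings and with each library left out. Bcl2l11 carries the 8mer match shown above, as does Bcl2, and Mcl1 a 7mer-A1 match.

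The other BH3-only genes were low and varied more. Bbc3 gave 3.53, 10.8 and 7.87 CPM in 12w Wt and 12.3, 12.9 and 10.7 CPM in 12w Tg7, and 1 Wt library just entered the Tg7 range. Its log2 fold change of 0.67 ± 0.33 was the largest of the 10 at this age and did not pass (adjusted p = 0.17). Pmaip1 gave 1.75 to 3.28 CPM in Wt and 2.52 to 4.17 CPM in Tg7, from 22 to 74 counts a library. Bid gave 8.95, 8.73 and 8.0 CPM in Wt and 6.99, 7.52 and 6.24 CPM in Tg7. All Tg7 libraries of Bid were below the Wt libraries, with a log2 fold change of -0.30 ± 0.23 (adjusted p = 0.38), which was 0.14 with library size alone. Of the exon length of Bid, 17.7% is shared with Bcl2l13 on the opposite strand, and whether strand was used in counting was not found in the study's methods.

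Genes used as cell type markers moved with the genotype at this age. Stellate cell and fibroblast markers rose in Tg7 for 6 of 6 genes, endothelial markers for 4 of 5, and β-cell markers fell for 7 of 8. Macrophage markers summed to 80.0 to 86.1 CPM in Wt and 65.8 to 69.1 CPM in Tg7, and T and NK lymphocyte markers to at most 0.846 CPM in any 12w library. More cells of a type and more RNA per cell cannot be told apart here either. In its single-cell data the study saw no significant change in the proportion of stellate cells. It places the induction of genes of epithelial-to-mesenchymal transition in β-cells. The part of cell composition in the differences of Mcl1, Bax and Bcl2l11 was not tested.

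**Figure D2:**
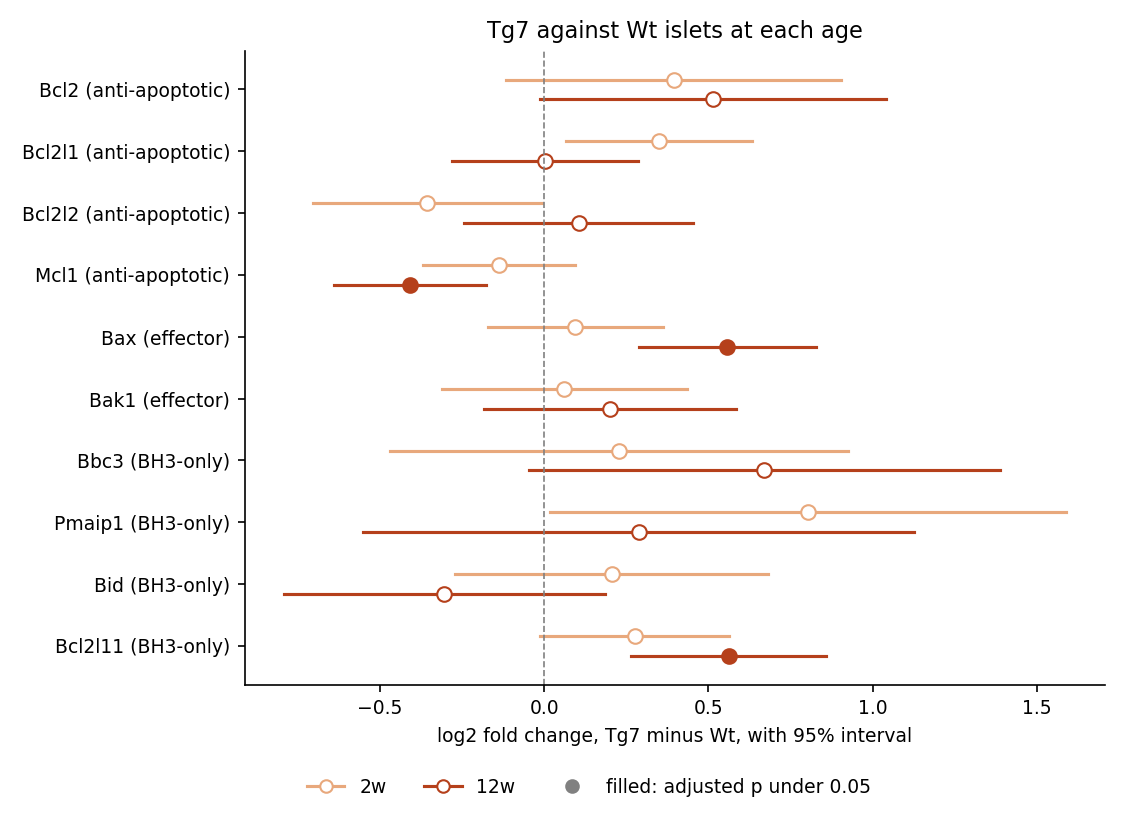
Log2 fold change of Tg7 against Wt islets (horizontal axis) for each of the 10 genes at 2w and 12w, with 95% intervals; filled points passed an adjusted p of 0.05. At 12w the filled points are Mcl1 at -0.41, Bax at 0.56 and Bcl2l11 at 0.56, and no point is filled at 2w.

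Ratios within a library do not depend on how libraries are scaled, so they bear on the 12w differences directly. Counts of Bax over counts of Mcl1 were 0.260, 0.362 and 0.287 in the 12w Wt libraries and 0.549, 0.603 and 0.626 in the 12w Tg7 libraries. Counts of Bcl2l11 over Mcl1 were 0.130, 0.108 and 0.136 in Wt and 0.238, 0.262 and 0.232 in Tg7. Counts of Bax over Bcl2l1 were 0.768, 0.756 and 0.782 in Wt and 1.08, 1.15 and 1.16 in Tg7. None of these 3 ratios overlapped between the groups, and they show unequal change of the transcripts in a ratio, not which of them changed. Counts of Bax over Bcl2 overlapped, at 6.61, 13.4 and 9.12 in Wt and 8.58, 9.75 and 10.8 in Tg7. The ratios were chosen with the fold changes known and carry no test. At 2w Bax over Mcl1 was 0.390, 0.442 and 0.393 in Wt and 0.422, 0.515 and 0.498 in Tg7, with overlap. Bcl2l11 over Mcl1 was 0.183, 0.284 and 0.219 in 2w Wt and 0.305, 0.309 and 0.285 in 2w Tg7, so that the lowest Tg7 library lay just above the highest Wt library. Bax over Bcl2l1 ran the other way at 2w, at 1.25, 1.29 and 1.31 in Wt and 1.05, 1.04 and 1.14 in Tg7, all lower.

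**Figure D3:**
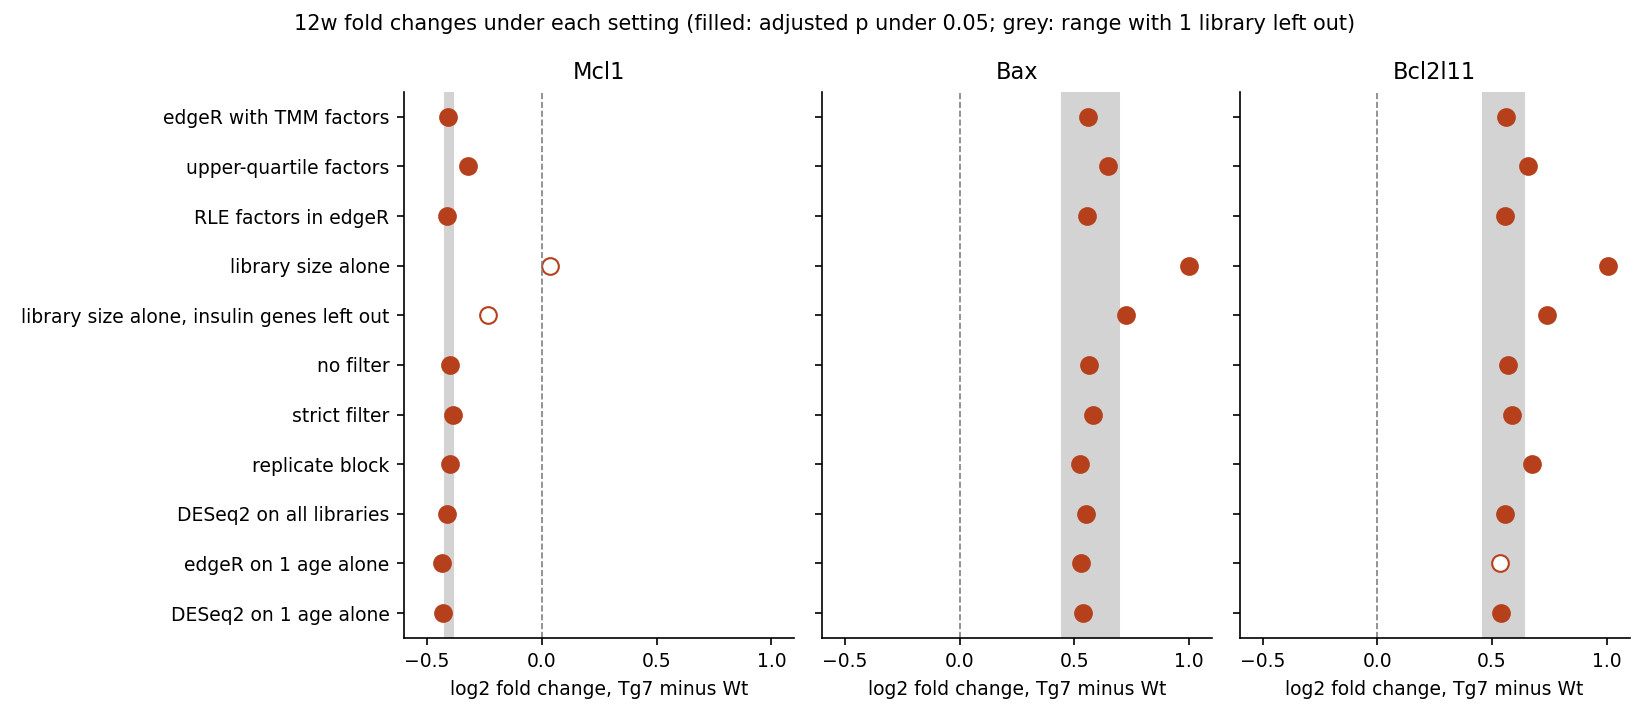
Log2 fold change of Tg7 against Wt at 12w (horizontal axis) for Mcl1, Bax and Bcl2l11 under edgeR with TMM factors and 10 alternative settings; filled points passed an adjusted p of 0.05 and the grey band spans the fits with 1 library left out. Mcl1 moves from -0.41 to 0.04 with library size alone, while Bax and Bcl2l11 stay at or above 0.52 throughout the settings.

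At 2w, the prediabetic age, none of the 10 genes passed the test in edgeR. At an unadjusted p under 0.05 there were 3, Bcl2l1, Bcl2l2 and Pmaip1, and DESeq2 on all libraries also called none. Of all genes tested, 10.6% passed at this age, 6.07% higher and 4.55% lower. The median log2 fold change of the 10 was 0.22, beside 0.03 over all genes, and groups did not overlap for 2 of them, against 35.9% of all genes. DESeq2 on the 2w libraries alone called Bcl2l1 higher (0.34) and Bcl2l2 lower (-0.36), and edgeR on those libraries called Bcl2l2 (-0.35).

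Those 2 protective genes were the ones whose groups did not overlap. Bcl2l1 gave 56.9, 49.9 and 48.5 CPM in 2w Wt and 61.9, 72.7 and 63.3 CPM in 2w Tg7. All Tg7 libraries were higher, and the log2 fold change was 0.35 ± 0.13 (adjusted p = 0.10). Bcl2l2 gave 102, 99.5 and 103 CPM in 2w Wt and 82.8, 83.1 and 72.2 CPM in 2w Tg7, all lower, with a log2 fold change of -0.36 ± 0.16 (adjusted p = 0.18). Without pool 4 of 12w Wt, which belongs to neither group, Bcl2l2 passed at -0.36 (adjusted p = 0.047). That fit estimated the spread anew and tested 16460 genes, and which of these moved the call was not tested. Same-strand overlap with Gm20521 takes in 13.3% of the Bcl2l2 exon length. Reads there could come from either gene, and how they were counted was not found. Bcl2, at 5.30 to 7.30 CPM in Wt and 7.0 to 10.98 CPM in Tg7, and Mcl1, at 146 to 182 and 145 to 154 CPM, overlapped.

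The effectors overlapped between the genotypes at 2w. Bax gave 63.6 to 70.9 CPM in Wt and 64.9 to 75.3 CPM in Tg7, with a 95% interval of the log2 difference from -0.17 to 0.36. Bak1 gave 21.0 to 25.8 and 20.6 to 27.9 CPM, with an interval from -0.31 to 0.44. Of the BH3-only genes, Pmaip1 had the largest estimate of the 10. It gave 5.58, 3.90 and 3.51 CPM in Wt and 8.22, 3.96 and 10.4 CPM in Tg7, so that 1 Tg7 library stayed in the Wt range. The log2 fold change was 0.80 ± 0.37 (adjusted p = 0.18). Bcl2l11 was at 33.3, 41.4 and 35.5 CPM in Wt and 46.9, 45.2 and 41.2 CPM in Tg7, at 0.28 ± 0.13 (adjusted p = 0.21). Bid gave 9.55, 8.40 and 8.99 CPM in Wt and 7.90, 8.83 and 14.3 CPM in Tg7, and its estimate of 0.21 became -0.12 without the last of these pools. Among cell type markers at 2w, β-cell markers fell in Tg7 for 7 of 8 genes, and stellate cell and fibroblast markers rose for 5 of 6. T and NK lymphocyte markers summed to at most 0.221 CPM in Wt and to 0.455, 0.795 and 10.9 CPM in Tg7, and none of the 4 genes passed the filter on low counts. B lymphocyte markers summed to 2.50 to 5.28 CPM in Wt and 4.42, 5.91 and 23.3 CPM in Tg7. Of those 4 genes 2 passed the filter and none was called. Macrophage markers summed to 36.6 to 47.1 CPM in Wt and 44.0, 48.8 and 92.4 CPM in Tg7, with 1 of 5 genes called, higher. The part of cell composition at 2w was not tested.

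Whether the Tg7 difference itself changed from 2w to 12w was tested with the interaction term. No gene of the 10 passed in edgeR, and DESeq2 and every other setting also called none. At an unadjusted p under 0.05 there was 1, Bax, with a difference of 0.46 ± 0.18 on the log2 scale (adjusted p = 0.25). Of all genes tested, 1.18% passed, 0.871% with a larger difference at 12w in the positive direction and 0.307% in the negative. The 95% intervals of the difference were 0.08 to 0.84 for Bax, -0.60 to 0.06 for Mcl1 and -0.13 to 0.70 for Bcl2l11. The calls at 12w and their absence at 2w are therefore not shown to differ between the ages.

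From 2w to 12w several of the genes fell and none rose. In Wt islets 3 of the 10 passed, all lower: Bcl2l11, Bax and Bak1. Of all genes tested, 15.8% passed, 7.9% higher and 7.91% lower. The median log2 change of the 10 was -0.44, beside 0.04 over all genes, and 9 of 10 estimates were below 0. The ages did not overlap for 4 of the 10, all lower, against 31.4% of all genes, 15.7% higher and 15.6% lower. In Tg7 islets 3 passed, again all lower: Bcl2l11, Pmaip1 and Mcl1, against 13.0% of all genes, 7.02% higher and 6.01% lower. The ages did not overlap for 6 of the 10, 5 lower and Bcl2l2 higher, against 40.7% of all genes, 21.5% higher and 19.2% lower. The Wt and Tg7 comparisons use separate libraries but a shared estimate of the spread. The falls of Bax and Bcl2l11 in Wt use the same 12w Wt libraries as their 12w differences between Tg7 and Wt. These results are therefore not independent of each other. Whether the 2w and 12w libraries were prepared together was not found, and age cannot be told apart from such a batch.

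Bcl2l11 changed most clearly with age. It went from 36.7 ± 4.19 CPM (SD, n = 3) at 2w to 19.3 ± 2.44 CPM at 12w in Wt, and from 44.4 ± 2.94 to 28.5 ± 1.88 CPM in Tg7. Groups did not overlap in either genotype, and the log2 changes were -0.93 ± 0.14 (adjusted p = 0.00057) and -0.64 ± 0.14 (adjusted p = 0.0066). Both calls held in all 8 alternative settings and with each library left out. Bax fell in Wt from 66.3 ± 4.02 to 46.9 ± 7.60 CPM (log2 change -0.50 ± 0.13, adjusted p = 0.016), a call that ended without pool 1 of 2w Wt (-0.45) or pool 1 of 12w Wt (-0.40). In Tg7 it was 70.8 ± 5.30 CPM at 2w and 69.1 ± 2.61 CPM at 12w, with an interval of the log2 difference from -0.30 to 0.23.

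Bak1 fell in Wt from 23.8 ± 2.46 to 15.6 ± 3.22 CPM (-0.62 ± 0.18, adjusted p = 0.031), a call that ended without pool 1 (-0.56) or 2 (-0.60) of 2w Wt or pool 2 (-0.63) or 4 (-0.48) of 12w Wt. In Tg7 it was 24.8 ± 3.79 and 17.8 ± 1.67 CPM (-0.48 ± 0.18, adjusted p = 0.089). Pmaip1 fell in Tg7 from 7.54 ± 3.29 to 3.15 ± 0.893 CPM (-1.26 ± 0.37, adjusted p = 0.039). The call ended when any pool of 12w Tg7, pool 1 or 3 of 2w Tg7, or pool 2 or 3 of 2w Wt was left out, at -1.51 to -0.94. Mcl1 was flat in Wt, at 163 ± 18.2 and 155 ± 2.01 CPM, with an interval from -0.31 to 0.16. In Tg7 it fell from 148 ± 4.89 to 117 ± 3.51 CPM (-0.34 ± 0.11, adjusted p = 0.049), a call at the threshold that was kept without 3 of the 12 libraries (each of the 12w Wt libraries) and lost without each of the other 9, at -0.37 to -0.32. Cell type markers moved with age too. Endothelial markers fell for 5 of 5 genes in Wt and 2 of 5 in Tg7, stellate cell and fibroblast markers for 4 of 6 in each, and proliferation markers for 4 of 4 in each. β-cell markers rose for 4 of 8 in each, macrophage markers for 2 of 5 in Wt and 1 of 5 in Tg7, and 1 stellate cell and fibroblast marker rose in Tg7. Their part in the changes with age was not tested.

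**Figure D4:**
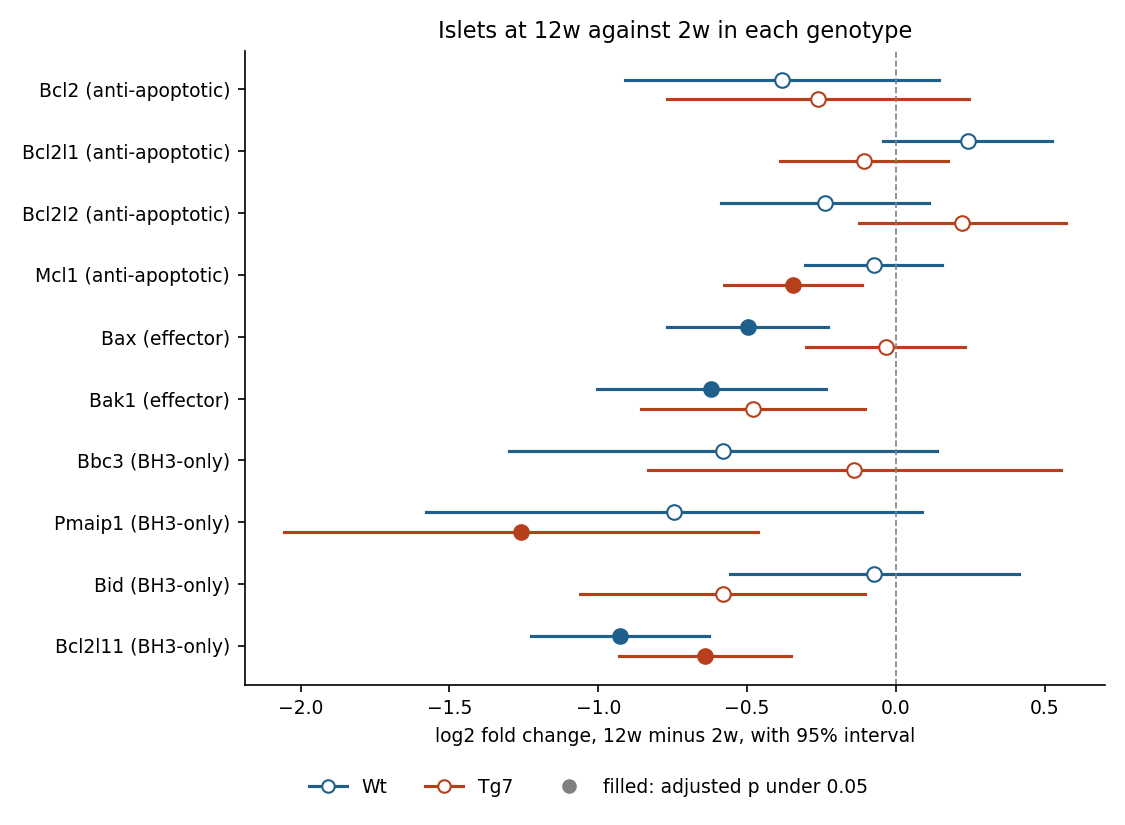
Log2 change from 2w to 12w (horizontal axis) for each of the 10 genes in Wt and in Tg7 islets, with 95% intervals; filled points passed an adjusted p of 0.05. Bcl2l11 is filled in both genotypes, at -0.93 in Wt and -0.64 in Tg7, and Bax lies at -0.50 in Wt and -0.03 in Tg7.

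Around these genes, 5 wider lists were read at both ages. Of 15 other Bcl2 family genes, 11 passed the filter on low counts, and 1 was called at each age, where 10.6% of all genes were called at 2w and 23.6% at 12w. This was Bcl2l13, a mitochondrial protein with a part in mitophagy, which fell from 49.5, 57.7 and 49.3 CPM in 2w Wt to 40.9, 32.3 and 36.3 CPM in 2w Tg7 (-0.51 ± 0.15, adjusted p = 0.041). At 12w it stood at 56.2, 49.5 and 71.4 CPM in Wt and 37.0, 41.3 and 36.2 CPM in Tg7 (-0.63 ± 0.15, adjusted p = 0.0075). It is the gene that shares exon length with Bid, and it was not called with library size alone at either age (-0.35 and -0.20). Its 2w call was also lost with the insulin genes left out (-0.49) and without any of 8 pools, 1, 2 or 3 of 2w Wt, 2 or 3 of 2w Tg7 and 1, 2 or 3 of 12w Tg7 (-0.56 to -0.44). The list median was 0.44 at 2w and 0.29 at 12w. At an unadjusted p under 0.05 in edgeR there were 6 of the 11 at 2w and 4 at 12w. DESeq2 on all libraries called 2 at each age, beside 2471 of 17187 genes at 2w and 4250 of 16737 at 12w. The BH3-only genes Bik and Bmf, at 0.76 ± 0.34 and 0.29 ± 0.23 at 12w, did not pass. The protective gene Bcl2a1b had 1 count in the 12w Wt libraries together and 30 in the 12w Tg7 libraries (adjusted p = 0.052).

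Downstream of the mitochondria, 17 apoptosome, caspase and inhibitor genes were read. At 12w 1 rose and 2 fell, with a list median of -0.06, where 23.6% of all genes were called. At 2w edgeR called none, with 3 at an unadjusted p under 0.05 and 2 called by DESeq2 on all libraries, and the list median was -0.02. Htra2, a mitochondrial protease that removes caspase inhibitors, gave 13.7, 20.2 and 14.0 CPM in 12w Wt and 29.7, 23.3 and 26.3 CPM in 12w Tg7 (0.72 ± 0.17, adjusted p = 0.0081). Endog, a mitochondrial nuclease, fell from 21.7 to 26.3 CPM in Wt to 15.1 to 16.4 CPM in Tg7 at 12w (-0.61 ± 0.15, adjusted p = 0.0088), and not with library size alone (-0.16). Vdac1, the channel of the outer mitochondrial membrane, fell from 162, 170 and 199 CPM to 123, 121 and 125 CPM (-0.53 ± 0.13, adjusted p = 0.0094). Its call ended with library size alone (-0.09) and with the insulin genes left out (-0.35). The scaffold Apaf1, which binds released cytochrome c, was at 0.35 ± 0.18 and not called.

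The death receptor list is the other route into the family, through Casp8, which cuts Bid. Of 14 genes 12 were tested, 4 rose at 12w and none fell, with a median of 0.21, where 12.5% of all genes rose and 11.2% fell. Fas rose from 0.504, 1.91 and 0.80 CPM to 3.21, 2.99 and 4.75 CPM (1.72 ± 0.44, adjusted p = 0.012), a call that ended without pool 3 of 12w Tg7 (1.49). The TRAIL receptor Tnfrsf10b rose from 7.56, 7.62 and 5.80 CPM to 14.5, 17.5 and 16.4 CPM (1.21 ± 0.20, adjusted p = 0.00078). Its ligand Tnfsf10 rose from 17.3 to 25.7 CPM to 35.5 to 38.2 CPM (0.84 ± 0.17, adjusted p = 0.0028), and Casp8 by 0.57 ± 0.18 (adjusted p = 0.030). Receptor and ligand are also transcribed in endothelial and stromal cells, whose markers rose at this age, and the part of those cells was not tested. At 2w the only call was Tnfaip3, the NF-κB feedback inhibitor A20, at 22.8, 9.42 and 11.7 CPM in Tg7 against 6.56 to 7.71 CPM in Wt (1.07 ± 0.27, adjusted p = 0.024). That call ended without pool 1 of 2w Tg7, its highest library (0.60), and without any pool of 2w Wt (1.02 to 1.15). The part of lymphocytes and macrophages, whose markers had their highest 2w sums in Tg7, was not tested.

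Of 18 genes for p53 and its targets 17 were tested. At 12w 4 rose and 2 fell, with a list median of -0.04, and at 2w 2 fell, where 23.6% and 10.6% of all genes were called. At an unadjusted p under 0.05 in edgeR there were 9 of the 17 at each age. DESeq2 on all libraries called 3 at 2w and 6 at 12w, beside 2471 of 17187 and 4250 of 16737 genes. Trp53 itself rose (0.52 ± 0.12, adjusted p = 0.0057). Phlda3, an Akt inhibitor, rose from 4.03, 7.38 and 7.0 CPM to 24.1, 25.3 and 25.8 CPM (2.01 ± 0.29, adjusted p = 0.00028). Eda2r, a death domain receptor, rose by 1.46 ± 0.40 (adjusted p = 0.017), a call that ended without pool 1 of 12w Wt (1.34) or pool 3 of 12w Tg7 (1.31). Tigar, a fructose bisphosphatase that p53 is known to raise in human cells, fell from 29.4 to 36.1 CPM to 15.5 to 17.7 CPM at 12w (-0.98 ± 0.17, adjusted p = 0.0011), and at 2w from 30.5 to 41.5 CPM to 9.94 to 14.9 CPM (-1.48 ± 0.17, adjusted p = 0.00014). Aen, a nuclease, fell at 2w (-0.55 ± 0.10, adjusted p = 0.0040), and not with library size alone (-0.38). The remaining calls at 12w were Polk, higher (0.73 ± 0.19, adjusted p = 0.012), and Zmat3, lower (-0.61 ± 0.15, adjusted p = 0.0084). The classical targets Cdkn1a and Mdm2 were at -0.10 ± 0.21 and -0.23 ± 0.10 at 12w and did not pass. Of the p53 targets among the 10, Bax passed (1.47-fold higher), and Bbc3 and Pmaip1 did not.

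The last list held 19 genes that set transcription or turnover of the family, all tested. At 2w edgeR called none, with 1 at an unadjusted p under 0.05 and 1 called by DESeq2 on all libraries, and at 12w 1 rose and 4 fell, with a median of -0.41. The 5 calls in 19 genes are near the 23.6% of all genes called at 12w, while 4 of the 5 fell, where 12.5% of all genes rose and 11.2% fell. At 12w 10 of the 19 had an unadjusted p under 0.05. DESeq2 on all libraries called 7 of the 19, beside 4250 of 16737 genes. Ddit3, the stress factor CHOP that is known to raise Bcl2l11 and Bbc3, was at 48.8, 99.1 and 67.3 CPM in Wt and 35.6, 30.3 and 28.1 CPM in Tg7 (-1.20 ± 0.41, adjusted p = 0.048). Its call at the threshold was lost under 5 of 10 settings, DESeq2 on all libraries among them (-1.20, adjusted p = 0.076), and without any of 7 pools, 3 of 2w Wt, 3 of 2w Tg7, 2 or 4 of 12w Wt and 1, 2 or 3 of 12w Tg7 (-1.28 to -0.89). Foxo1, a FOXO factor of the kind whose core motif is shown above for Bcl2l11 and Bbc3, fell from 181, 114 and 132 CPM to 103, 102 and 102 CPM (-0.47 ± 0.15, adjusted p = 0.039). Foxo1 was at -0.00391 with library size alone, was not called in 5 of 10 settings and was at -0.29 without pool 1 of 12w Wt. Its call also ended without any pool of 2w Wt or 12w Tg7 or pool 2 of 2w Tg7 (-0.47 to -0.45). Usp9x, the deubiquitinase that stabilises Mcl1, gave 270, 208 and 639 CPM in Wt and 189, 189 and 194 CPM in Tg7 (-0.97 ± 0.30, adjusted p = 0.034), and without pool 4 of 12w Wt it was at -0.32 and not called. The Usp9x call also ended in 4 of 10 settings and without any pool of 12w Tg7 (-0.98 to -0.93). Fbxw7, a subunit of a ligase that marks Mcl1 for degradation, rose (0.37 ± 0.11, adjusted p = 0.031).

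**Figure D5:**
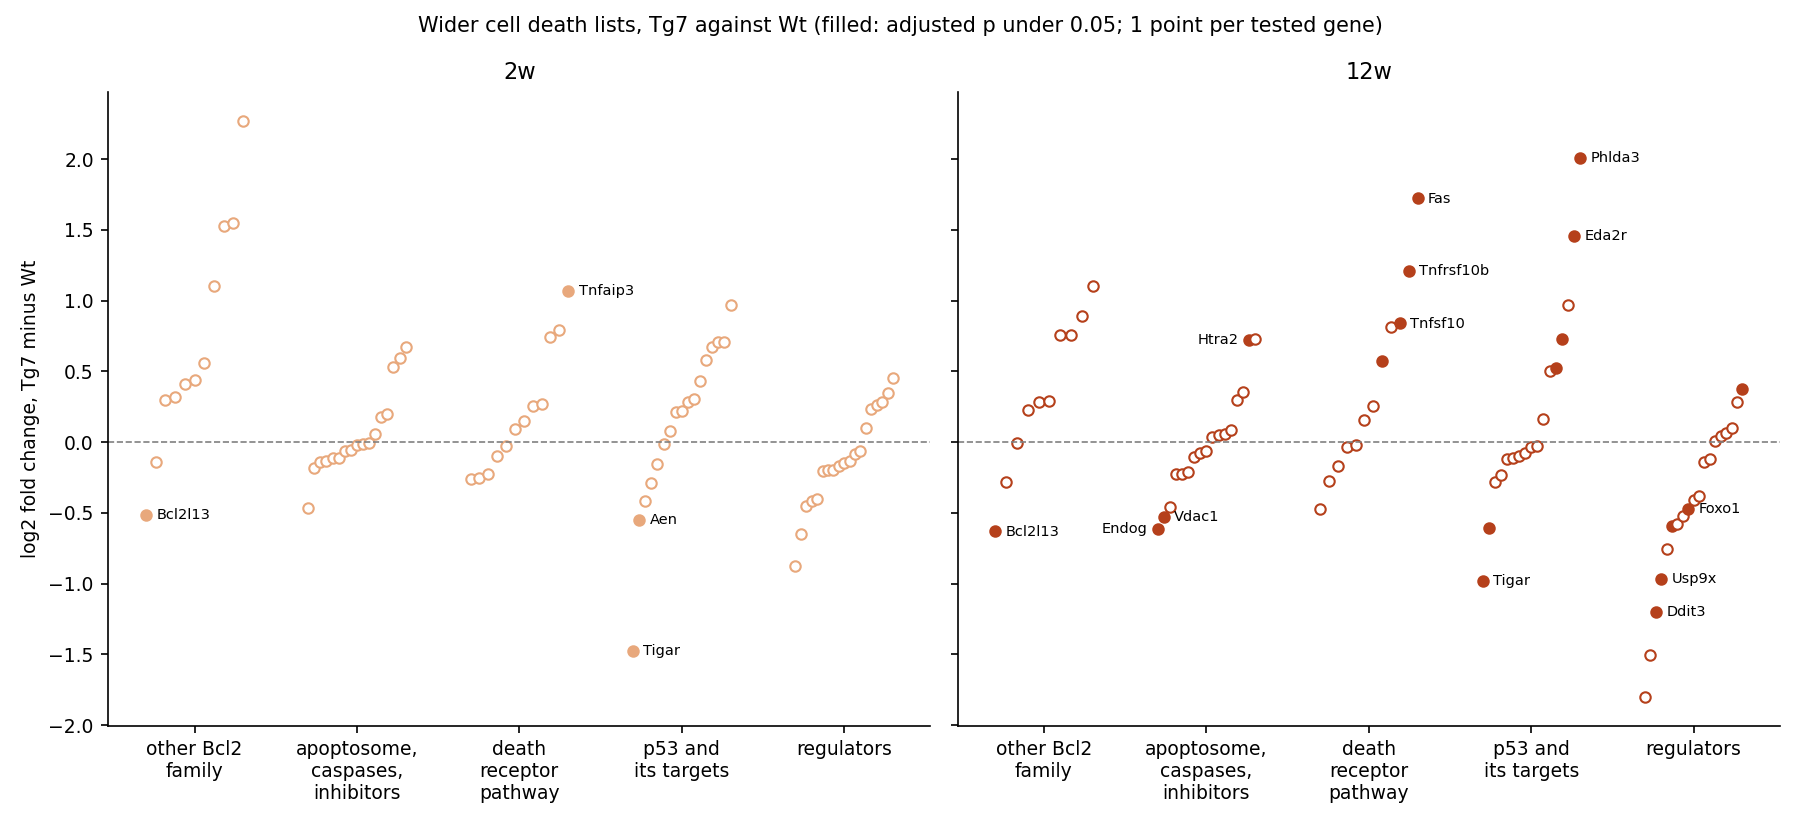
Log2 fold change of Tg7 against Wt (vertical axis) for each tested gene of the 5 wider lists at 2w and 12w, ordered within a list; filled points passed an adjusted p of 0.05, and Bcl2a1b at 12w, with 1 count in Wt, is not drawn. At 12w the filled points of the death receptor list all lie above 0, and 4 of the 5 filled points of the regulators lie below it.

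For the 3 genes called at 12w, the tested genes with the most similar profile over the 12 libraries were sought, by the root mean square difference of log2 CPM centred on each gene's mean. For Mcl1 these were Dcp1a (0.085) and Cct4 (0.086), against a spread of 0.20 in Mcl1 itself. For Bax they were Arvcf (0.074) and Nt5c3l (0.087), against 0.27, and both had higher levels in 12w Tg7 (0.62 ± 0.15 and 0.47 ± 0.14 on the log2 scale). For Bcl2l11 they were Ptprz1 (0.14) and Cald1 (0.14), against 0.46. On the log2 scale Ptprz1 and Cald1 were higher in 12w Tg7 by 0.63 ± 0.21 and 0.55 ± 0.10, and changed with age in Wt by -0.97 and -0.88. All these genes were picked for their likeness over the same libraries, so changes shared with a member follow from the choice.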

How the data were processed

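Sequencing was paired-end, from NEB Ultra II libraries. According to the study's methods and the submitters' processing notes, the authors trimmed reads with Trimmomatic, aligned them to mm9 (NCBIM37) with TopHat2 2.0.11 and counted them per Ensembl gene with featureCounts. The deposited values are raw counts for 12 libraries of 4 groups of 3. Whether strand was used in counting was not found in these sources, so reads of overlapping genes on opposite strands cannot be told apart.

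Genes were kept by filterByExpr (minimum count 10, minimum total 15). Counts were scaled by TMM factors and fitted as 4 group means with glmQLFit and glmQLFTest in edgeR 4.0.16 (R 4.3.3), with Benjamini-Hochberg adjustment over 15961 genes and a threshold of 0.05. The SE is the log2 fold change over the square root of F. All p values for single genes come from this fit unless another tool is named. Levels per kb used the union of exons in GENCODE vM1. miR-7 matches were searched in the longest annotated 3′ UTR, and promoters and the microRNA came from RefSeq. The fit was tested on simulated counts.

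Libraries with the same replicate number were not paired: the correlations of their deviations were -0.021, -0.17 and -0.034 at 2w and -0.089 and -0.011 at 12w. Alternatives were library size alone, upper-quartile and RLE factors, DESeq2 1.42.0, each age alone, no filter, at least 50 counts in 3 libraries, the replicate block and each library left out. Library size without the insulin genes was added after seeing the data. The members, lists and tests were chosen with earlier results of these data known. Every member is named, and from each other list up to 3 called genes an age with non-overlapping groups and the largest change; other list genes and the ratios were chosen after their values were seen. A pair of genes in the apoptosome and caspase list is not reported here.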

Additional observations from a re-analysis of the deposited data

How the results depend on the processing

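At 2w no member was called in the fit reported, 1 was called with library size alone (Bcl2l1, 0.52) and in edgeR on the 2w libraries (Bcl2l2, -0.35), and 2 in DESeq2 on those libraries. At 12w the 3 calls became 6 with library size alone, all higher: Bcl2, Bcl2l1, Bax, Bak1, Bbc3 and Bcl2l11. That scaling moved the median over all genes from 0.03 to 0.19 (log2) at 2w, from -0.01 to 0.43 at 12w and from 0.04 to -0.35 with age in Wt, and the 12w calls from 1989 higher and 1783 lower to 5198 and 360. From 2w to 12w in Wt the 3 calls became 6 with it, all lower. With a library left out, the members called ranged from 0 to 1 at 2w, 2 to 3 at 12w, 1 to 3 for age in Wt, 1 to 4 for age in Tg7 and 0 to 0 for the difference of ages; a group of 2 libraries is then assumed to vary like the others. With library size alone the sign turned for Mcl1 at 2w (0.0331), at 12w (0.0370) and in the difference of ages (0.00395), for Bid at 12w (0.14) and for Bcl2l1 with age in Wt (-0.15). Bcl2l1 at 12w, at 0.00 in the fit reported, was at -0.00195 with RLE factors, -0.0037 in DESeq2, -0.0246 in edgeR and -0.0188 in DESeq2 on the 12w libraries and -0.0170 with the replicate block, and Bid with age in Wt was at 0.0452 with that block. Signs also turned with a library left out for uncalled estimates: Bak1 (-0.0337 to 0.17), Bbc3 (-0.0639 to 0.45) and Bid (-0.12 to 0.37) at 2w, Bcl2l1 (-0.11 to 0.16) and Bcl2l2 (-0.11 to 0.32) at 12w, Bcl2 in the difference of ages (-0.00121 to 0.34), Mcl1 with age in Wt (-0.15 to 0.00772), and Bax (-0.10 to 0.0142) and Bbc3 (-0.35 to 0.15) with age in Tg7. The cause was not tested. Calls over all genes, the background of the counts, ran over the alternatives and left-out libraries from 754 (without pool 3 of 2w Wt) to 3071 (without pool 4 of 12w Wt) at 2w, from 2417 to 5558 at 12w, from 1336 to 4120 for age in Wt, where 2524 were called as reported, from 1115 to 3329 for age in Tg7, beside 2079, and from 82 to 579 for the difference of ages. The replicate block called 2630 genes at 2w, 3572 at 12w and 502 for the difference of ages, beside 1695, 3772 and 188 without it, and no member at 2w or for the difference. With age it added Bcl2l2 in Wt (-0.49, beside -0.24) and Bak1 in Tg7 (-0.47, beside -0.48). Pool 4 of 12w Wt is the only library with its number, so the block gives it a term of its own. That pool then hardly informs the group means, and the block is close to leaving it out. Leaving it out also added Bcl2l2 in Wt (-0.46) and Bak1 in Tg7 (-0.48). Over all members, comparisons and alternatives, 972 values kept direction and side of the threshold, 18 gained a call, 27 lost one and 23 turned sign. A value that turned sign was counted there alone, as was Mcl1 at 12w with library size alone, which also lost its call. Pmaip1, with 22 to 210 counts a library, and Bbc3, with 28 to 278, were the members whose intervals were widest.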
